A study of Mus musculus with 6 samples.

Results

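Oxidative phosphorylation was followed through 98 genes in mouse chondrocytes given vesicles that macrophages released after LPS (M-LPS-EV) or without it (M-EV). The rule for members used names and no values, but was set with earlier results of these data known. The members were the protein-coding genes whose symbols carry the stems of the subunits of respiratory complexes I to V. They made up 98 of the 55487 genes in the files, of which 21897 were annotated as protein-coding. Of these members 13 lie on the mitochondrial chromosome and 85 in the nucleus. Complex I took 42 members, complex II 4, complex III 9, complex IV 23 and complex V 20. Ndufa4 and Ndufa4l2, named after complex I, were counted with complex IV, where the Ndufa4 protein is known to sit.

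Oxidative phosphorylation makes ATP at the inner mitochondrial membrane. Complexes I and II pass electrons from NADH and succinate to coenzyme Q, complex III hands them to cytochrome c, complex IV gives them to oxygen, and complex V uses the proton gradient so formed to make ATP. Complex II is built from nuclear genes alone, while the other complexes combine nuclear and mitochondrial subunits, so their assembly draws on transcripts of both genomes. Chondrocytes live in cartilage without blood vessels and are known for a largely glycolytic metabolism.

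The 6 libraries came from cultured knee cartilage chondrocytes of C57B/6 mice, kept in DMEM-F12 medium with 10% serum and antibiotics. M-LPS-EV cells (3 libraries) received vesicles of macrophages that had been exposed to LPS, the endotoxin of bacterial walls. M-EV cells (3 libraries) received vesicles from unstimulated macrophages. In both groups the dose was 10 µg/ml of vesicle protein for 24 h, so each difference lies between vesicle types. Cells without vesicles were not analysed here, and neither a genotype beyond the strain nor the age of the mice or the source of the macrophages is given in the sources used here. The sources do not say whether the 3 libraries of a group came from separate animals or cultures, so p-values measure the spread between these libraries, which may be technical.

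Expected counts, RSEM's estimates of reads per gene, summed to 20239626 to 23539911 per M-LPS-EV library and to 22274687 to 25712667 per M-EV library. The cells carried the markers of their label, with 75670 to 77490 CPM (counts scaled to library size) for the cartilage collagen gene Col2a1 in M-LPS-EV libraries and 85690 to 86890 CPM in M-EV libraries. Over 9 chondrocyte markers the summed level was 109600 to 111900 CPM in M-LPS-EV libraries and 128200 to 129200 CPM in M-EV libraries, and 8 of the 9 fell. Over 10 macrophage markers it was 32.8 to 37.8 CPM in M-LPS-EV libraries and 23.6 to 25.8 CPM in M-EV libraries. Of the 8 macrophage markers tested 4 rose, namely Adgre1, Lyz2, Itgam and Cd14, while the defining leukocyte marker Ptprc had 20 counts in M-LPS-EV cells and 23 in M-EV cells and was not tested. The part of these marker levels in the results below was not tested.

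Most transcripts of the respiratory chain and ATP synthase differed little between the vesicle types, and a few genes stood apart. Of the 93 members that passed the filter on low counts, 7 rose, 10 fell and 76 were not called. By edgeR's quasi-likelihood test at adjusted p under 0.05, 18.3% were thus called. Of the 7 that rose, Cox6b2 passed the filter only through the M-LPS-EV libraries. Among all 14604 genes tested 31.6% were called, 16.4% higher and 15.2% lower, and among the 3678 genes with a mean of at least 50 CPM the share was 49.6%, 21.4% higher and 28.2% lower. Against a minimum change of 1.2-fold (edgeR glmTreat) 2 members were called higher and 1 lower, Ndufa4l2, Ndufv3 and Atp5g1, beside 7.79% of all tested genes. The count of lower members depends on the scaling, since upper-quartile scaling in place of TMM gave 5 higher and 17 lower. Leaving out 1 library gave 4 to 6 higher, with 4 each without M-EV replicate 1, M-EV replicate 3 or M-LPS-EV replicate 2, and 7 to 11 lower. Of 93 members 77 (82.8%) had a log2 fold change within 0.1 of 0, against 41.7% of all tested genes and 55.5% of those with at least 50 CPM. The median size of change, sign ignored, was 0.05 on the log2 scale for members, 0.13 for all tested genes and 0.09 for those with at least 50 CPM. The members' median standard error was 0.04, so a change of that median size is close to the error of a single member. The libraries of the groups did not overlap in 28 members (30.1%), 12 with M-LPS-EV higher and 16 with M-LPS-EV lower, against 42.2% of all tested genes, 21.5% higher and 20.6% lower.

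**Figure D1:**
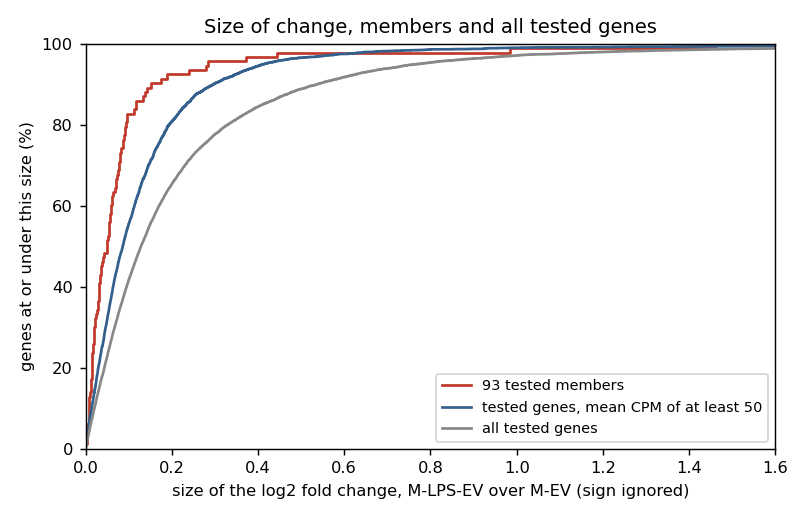
Cumulative share of genes (percent, vertical axis) at or under a given size of log2 fold change between M-LPS-EV and M-EV (horizontal axis, sign ignored), for the 93 tested members and for all tested genes with and without a minimum mean of 50 CPM. The members' curve climbs fastest, with 82.8% of members at or under 0.1, against 41.7% of all tested genes, and its right tail holds the few genes that moved far.

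**Figure D2:**
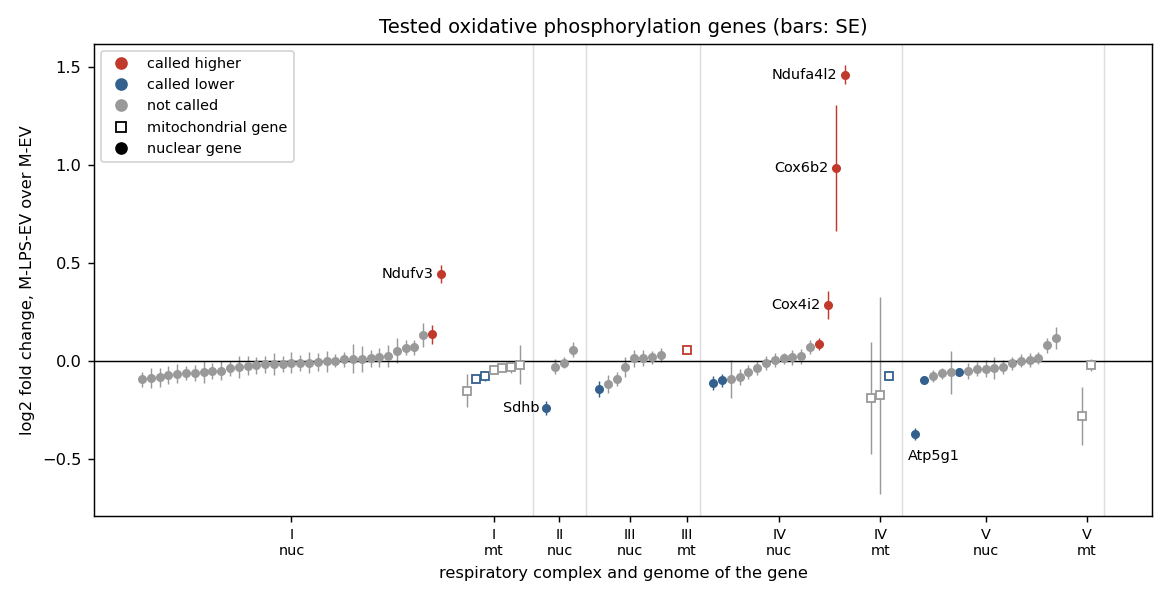
Log2 fold change of M-LPS-EV over M-EV (vertical axis) for each of the 93 tested members, ordered within complex and genome (horizontal axis). Bars are standard errors, filled circles nuclear genes and open squares mitochondrial genes. Ndufa4l2, Cox6b2, Ndufv3 and Cox4i2 are the highest called members and Atp5g1 and Sdhb the lowest, while the long error bars in the mitochondrial columns of complexes IV and V belong to genes with near-identical nuclear copies.

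Summed over the 85 nuclear members, the share of all counts was 0.604%, 0.615% and 0.609% in M-LPS-EV libraries and 0.608%, 0.611% and 0.610% in M-EV libraries. The M-EV values lay inside the M-LPS-EV range. The 13 mitochondrial members took 1.88%, 1.83% and 1.92% of counts in M-LPS-EV libraries and 1.92%, 1.91% and 1.91% in M-EV libraries, so these groups overlapped too. Scaled by transcript length (as TPM), the nuclear sum was 1.78% ± 0.0148 of TPM in M-LPS-EV libraries and 1.82% ± 0.00546 in M-EV libraries, and the mitochondrial sum 4.97% ± 0.199 and 5.198% ± 0.0782 (SD, n = 3 each). On that scale neither sum overlapped between the groups, although the mitochondrial sums came close, at 5.136% in the highest M-LPS-EV library and 5.141% in the lowest M-EV library. The largest part of the mitochondrial TPM sum was mt-Atp8, with means of 17090 TPM in M-LPS-EV and 17700 TPM in M-EV libraries. Its effective length of 26.5 to 28.0 bases makes that TPM uncertain. Reads assigned to nuclear copies of mitochondrial genes, described below, are not in these sums. In RNA of whole cultures, fewer cells or mitochondria and less RNA in each cannot be told apart.

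The mitochondrial genes code for the hydrophobic core subunits of complexes I, III, IV and V and are transcribed as long precursors from either strand of the mitochondrial DNA. Of the 13 genes mt-Cytb rose, mt-Nd2, mt-Nd4 and mt-Co1 fell, and 9 were not called. That share, 30.8% called, is near the 31.6% of all tested genes. Without M-EV replicate 1 or replicate 3 the calls numbered 2, beside 26.9% and 27.4% of all genes called in those fits. Without M-LPS-EV replicate 3 they numbered 7, beside 29.1% of all genes, so the nearness of the shares depends on the libraries. Their median log2 fold change was -0.08, against 0.003 over all tested genes, and 12 of the 13 estimates were below 0. That count rests partly on 1 library, since without M-LPS-EV replicate 2 it was 8 of 13 with a median of -0.03.

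mt-Nd2 (chrM:3914-4951), a membrane subunit of complex I, had 1001, 1015 and 1035 CPM in M-LPS-EV libraries and 1094, 1091 and 1061 CPM in M-EV libraries. The groups did not overlap, and the log2 fold change was -0.09 (SE 0.02, adjusted p = 0.00052 by edgeR). mt-Co1 (chrM:5328-6872), the catalytic subunit of complex IV, had 7881, 7487 and 7870 CPM in M-LPS-EV libraries and 8153, 8237 and 8089 CPM in M-EV libraries. Again all M-LPS-EV libraries were lower (log2 fold change -0.08, SE 0.02, adjusted p = 0.00082 by edgeR).

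mt-Nd4 (chrM:10167-11544), another membrane subunit of complex I, had 2317, 2180 and 2399 CPM in M-LPS-EV libraries and 2490, 2322 and 2462 CPM in M-EV libraries. These groups overlapped, and the call (log2 fold change -0.08, SE 0.03, adjusted p = 0.023 by edgeR) was lost without M-EV replicate 1, M-EV replicate 3 or M-LPS-EV replicate 2, at adjusted p from 0.090 to 0.18. mt-Cytb (chrM:14145-15288), the cytochrome b of complex III, had 2476, 2464 and 2480 CPM in M-LPS-EV libraries and 2376, 2403 and 2367 CPM in M-EV libraries. It was the 1 mitochondrial gene called higher, by 0.05 on the log2 scale (SE 0.02, adjusted p = 0.0072 by edgeR), and without M-EV replicate 1 or replicate 3 its adjusted p was 0.056 and 0.057.

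Other complex I genes of the mitochondrion were not called. mt-Nd1 had 2064, 1973 and 2068 CPM in M-LPS-EV libraries and 2085, 2098 and 2079 CPM in M-EV libraries. mt-Nd5 had 1924, 1933 and 2072 CPM in M-LPS-EV libraries and 2033, 2035 and 2044 CPM in M-EV libraries. mt-Nd1 was lower in all 3 M-LPS-EV libraries, by 0.04 on the log2 scale (adjusted p = 0.13 by edgeR), whereas mt-Nd5 overlapped. mt-Nd6, the 1 protein gene on the opposite strand, had 442, 408 and 439 CPM in M-LPS-EV libraries and 433, 457 and 426 CPM in M-EV libraries, also overlapping. mt-Atp8, a small subunit of complex V, had 260, 259 and 286 CPM in M-LPS-EV libraries and 264, 282 and 269 CPM in M-EV libraries and is only 204 bases long, with an effective length of 26.5 to 28.0 bases that makes its TPM uncertain.

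For 6 mitochondrial genes many reads had been assigned to near-identical copies in the nuclear genome, annotated as pseudogenes on chromosomes 1 and 2. Only 0.236% to 1.25% of the reads of mt-Co2 and its copies stood under mt-Co2, 0.00362% to 5.47% under mt-Co3 and 2.84% to 6.78% under mt-Atp6. For mt-Nd3 the share was 16.4% to 25.8%, for mt-Nd4l 35.9% to 52.9% and for mt-Co1 90.6% to 92.8%. The sequences below are shown because they set which genes can be told from their copies. They are GENCODE M21 transcripts, and positions count from 1 at the 5′ end of the mitochondrial gene. mt-Co2 and Gm28661 are identical over positions 1 to 681, of which positions 321 to 361 are printed. mt-Nd3 and Gm28438 have 1 difference over positions 1 to 345, T3C, with positions 1 to 23 printed. mt-Co1 and Gm29216, compared over positions 1054 to 1545, have 6 differences, which all lie in the printed positions 1054 to 1076: T1056A, C1057T, A1059G, A1060G, C1062A and A1066T. Capitals mark the bases that differ.
mt-Co2: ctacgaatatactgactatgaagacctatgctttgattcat
Gm28661: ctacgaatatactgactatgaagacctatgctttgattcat
mt-Nd3: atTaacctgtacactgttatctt
Gm28438: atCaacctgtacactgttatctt
mt-Co1: ggTCtAAcCggaAttgttttatc
Gm29216: ggATtGGcAggaTttgttttatc

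The split between gene and copy varied from library to library. mt-Co3 was listed at 0.0938, 142 and 96.7 CPM in M-LPS-EV libraries and at 153, 30.3 and 86.4 CPM in M-EV libraries. Those values spread over orders of magnitude within a group, while the copy Gm28437 held nearly all of the reads in every library. With the copies added to their genes, mt-Co2 stood at 11010, 11260 and 11160 TPM in M-LPS-EV libraries and at 11140, 11450 and 11080 TPM in M-EV libraries. The spread shrank to a few percent, and the log2 fold change of mt-Co2 was 0.00 (SE 0.02), in place of -0.19 (SE 0.28) as deposited.

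With copies added, mt-Nd3, a membrane subunit of complex I, had 2504, 2294 and 2552 TPM in M-LPS-EV libraries and 2692, 2744 and 2724 TPM in M-EV libraries. The groups did not overlap, and mt-Nd3 was then called lower (log2 fold change -0.13, SE 0.03, adjusted p = 0.00033 by edgeR), whereas the deposited counts of mt-Nd3 alone gave -0.02 (SE 0.10). mt-Co3 and mt-Atp6, membrane subunits of complexes IV and V, gave -0.04 (SE 0.02, adjusted p = 0.13) and -0.01 (SE 0.02, adjusted p = 0.81) with copies added, by edgeR's quasi-likelihood test. mt-Nd4l gave -0.01 (SE 0.02, adjusted p = 0.87 by edgeR). In all, 1 mitochondrial gene was then called higher and 4 lower, with a median of -0.04 and 11 of 13 below 0, against 31.9% of all genes called in that fit. The mitochondrial sum with copies was 2.78% ± 0.0365 of counts in M-LPS-EV libraries and 2.81% ± 0.0180 in M-EV libraries (SD, n = 3 each), with overlapping groups. As a share of TPM the sum with copies was 8.588% ± 0.1542 in M-LPS-EV libraries and 8.877% ± 0.1303 in M-EV libraries (SD, n = 3 each). On that scale the groups did not overlap, with 8.727% in the highest M-LPS-EV library and 8.79% in the lowest M-EV library.

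**Figure D3:**
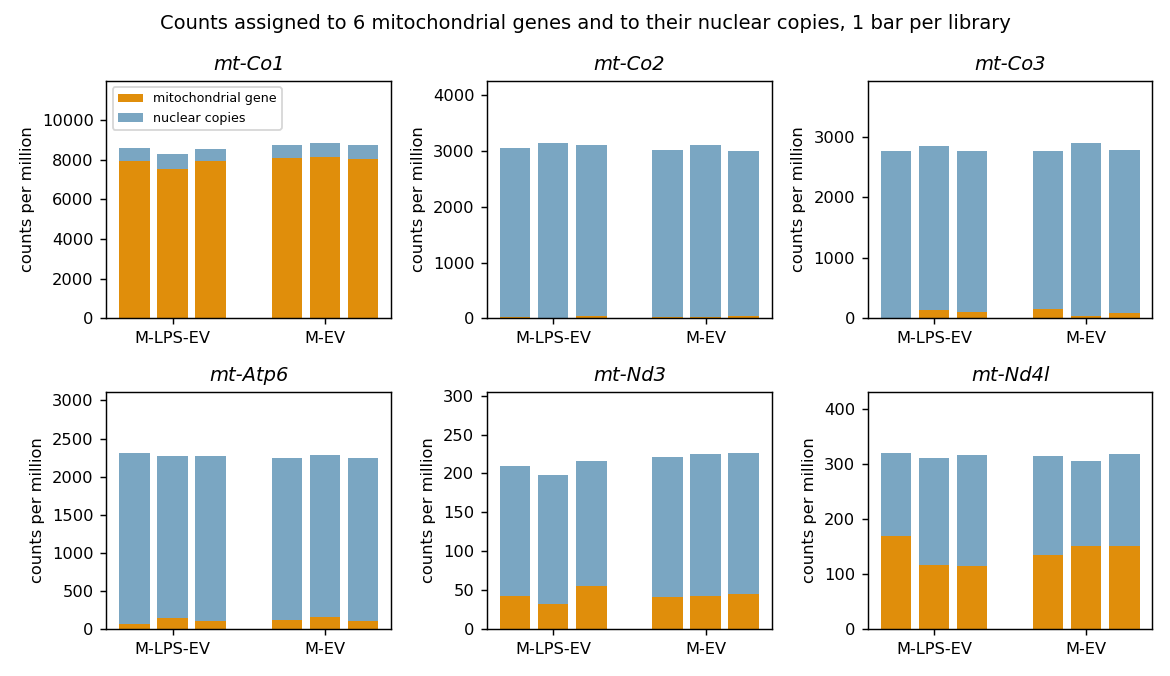
CPM (vertical axis) assigned to 6 mitochondrial genes and, stacked on them, to their nuclear copies, with 1 bar per library and the M-LPS-EV libraries left of the M-EV libraries. Nearly all reads of mt-Co2, mt-Co3 and mt-Atp6 stand under the nuclear copies, and the stacked totals vary less than the parts.

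**Figure D4:**
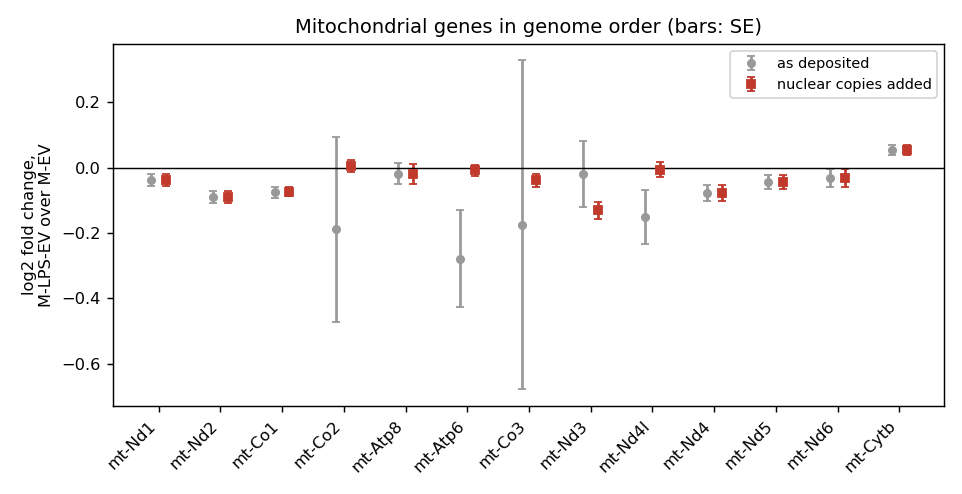
Log2 fold change of M-LPS-EV over M-EV (vertical axis) for the 13 mitochondrial genes, from the counts as deposited and with nuclear copies added. Bars are standard errors. Adding the copies shrinks the error bars of mt-Co2, mt-Co3 and mt-Atp6, moves mt-Nd3 to -0.13 and leaves mt-Cytb at 0.05.

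Of the 85 nuclear members 80 were tested, and 6 rose, 7 fell and 67 were not called. That is 16.2% called, beside 31.6% of all tested genes and 49.6% of those with at least 50 CPM. The median log2 fold change of the nuclear members was -0.01. The 5 untested members were Cox7b2 and Cox8c, known as testis isoforms, Cox7a1 and Cox8b, known from heart and skeletal muscle, and a second gene identifier for Atp5o. Cox7a1 had 6 counts in M-LPS-EV cells and 6 in M-EV cells, Cox7b2 had 0 and 2, and the others had 0 in both groups. As TPM, Atp5b was the highest nuclear member tested, at 1049 ± 11.9 TPM in M-LPS-EV libraries and 1117 ± 44.2 TPM in M-EV libraries (SD, n = 3 each). The median level of tested members was 138 TPM in M-LPS-EV and 138 TPM in M-EV libraries for nuclear complex I, and 289 and 303 TPM for nuclear complex V.

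Promoter sequence from RefSeq (GRCm38.p6, 250 bases before to 50 after the gene start) was matched for 69 of the 85 nuclear members. The Atp5o promoter is counted for both of its gene identifiers. Ndufa4l2 and Cox4i2 were among the members without a match, so the shares below leave them out. Each matched promoter was searched on both strands for motifs of factors known from respiratory and hypoxia genes, and for an NF-kB motif. The letters GCATGCGC, from the motif of NRF1, were in 14.5% of member promoters and 3.60% of the 17491 protein-coding promoters. The ETS motif CCGGAAG, bound by GABP, was in 21.7% and 11.9%, the YY1 motif AAGATGGCG in 8.70% and 1.94%, and the ERR motif TCAAGGTCA in 2.90% and 0.332%. Of the hypoxia response cores, ACGTG was in 26.1% and 20.7%, and GCGTG in 52.2% and 38.4%. A match describes letters in these windows and not a site in use. The promoters of Ndufv3 (chr17:31519865-31520164, plus strand), Atp5g1 (chr11:96075582-96075881, minus strand) and Sdhb (chr4:140961021-140961320, plus strand) are shown because these members moved most among those that had over 10 CPM and a matched promoter. Capitals mark the NRF1 and ETS letters and the hypoxia cores named above, on either strand.
Ndufv3: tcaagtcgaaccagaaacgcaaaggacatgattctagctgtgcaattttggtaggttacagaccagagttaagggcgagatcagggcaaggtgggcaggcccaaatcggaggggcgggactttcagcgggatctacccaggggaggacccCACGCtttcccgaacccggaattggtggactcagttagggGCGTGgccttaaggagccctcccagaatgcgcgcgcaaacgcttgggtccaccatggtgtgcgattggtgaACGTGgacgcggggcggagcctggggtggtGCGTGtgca
Atp5g1: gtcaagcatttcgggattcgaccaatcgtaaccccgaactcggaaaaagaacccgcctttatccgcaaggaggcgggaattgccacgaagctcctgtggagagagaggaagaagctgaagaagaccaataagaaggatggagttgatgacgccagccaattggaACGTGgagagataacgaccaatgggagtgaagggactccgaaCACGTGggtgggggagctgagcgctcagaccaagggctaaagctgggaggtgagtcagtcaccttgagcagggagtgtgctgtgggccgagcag
Sdhb: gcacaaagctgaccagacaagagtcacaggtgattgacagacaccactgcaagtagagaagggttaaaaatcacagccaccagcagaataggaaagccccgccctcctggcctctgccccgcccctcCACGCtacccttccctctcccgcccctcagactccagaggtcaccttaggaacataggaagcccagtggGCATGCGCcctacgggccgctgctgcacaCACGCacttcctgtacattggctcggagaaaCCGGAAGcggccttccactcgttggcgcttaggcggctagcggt
The Sdhb promoter holds both a GCATGCGC and a CCGGAAG, and the Atp5g1 and Ndufv3 promoters hold neither. The Atp5g1 promoter holds CACGTG, which reads ACGTG on both strands.

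In complex I, which oxidises NADH, 2 of 35 nuclear members rose and none fell, a share of 5.71% called against 31.6% of all tested genes. None of the 7 nuclear core subunits was called; their log2 fold changes ran from -0.09 for Ndufs3 (adjusted p = 0.070 by edgeR) to 0.03 for Ndufs7 (adjusted p = 0.77). Ndufv1, which binds NADH, gave -0.01 (SE 0.04). Ndufv3 (chr17:31520115-31531331), an accessory subunit of the NADH-oxidising arm whose promoter is printed above, had 44.3, 42.8 and 45.6 CPM in M-LPS-EV libraries and 33.6, 32.3 and 31.5 CPM in M-EV libraries. The groups lay well apart, and Ndufv3 rose by 0.44 on the log2 scale (SE 0.04, adjusted p = 1.2e-08 by edgeR). Its neighbours in that arm, Ndufv1 and Ndufv2, were not called.

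Ndufv3 has a short and a long protein-coding transcript. The short one, Ndufv3-202, made up 84.1%, 83.8% and 83.9% of the gene's abundance in M-LPS-EV libraries and 86.4%, 83.9% and 83.9% in M-EV libraries. These shares overlapped, so the transcripts stood in a like ratio in both groups. The other complex I member called, the accessory subunit Ndufa6, had 34.6, 37.1 and 33.3 CPM in M-LPS-EV libraries and 32.7, 31.9 and 30.9 CPM in M-EV libraries (log2 fold change 0.14, SE 0.05, adjusted p = 0.034 by edgeR). Its groups did not overlap, but its call was lost without M-EV replicate 2, M-EV replicate 3, M-LPS-EV replicate 1 or M-LPS-EV replicate 2, at adjusted p from 0.067 to 0.23. The accessory subunit Ndufa7 had the highest level in nuclear complex I, 284 TPM in M-LPS-EV and 292 TPM in M-EV libraries on average, and was not called. Ndufb4, the lowest, is uncertain, because its 2 pseudogene copies carried 121% as many counts as the gene itself.

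In complex II, which oxidises succinate and belongs to the citric acid cycle as well, 1 of 4 members fell, beside 15.2% of all tested genes. Sdhb (chr4:140961203-140979193), the iron-sulfur subunit, had 82.1, 76.5 and 77.4 CPM in M-LPS-EV libraries and 92.3, 93.6 and 92.6 CPM in M-EV libraries. All M-LPS-EV libraries were lower, and Sdhb fell by 0.24 on the log2 scale (SE 0.04, adjusted p = 7.4e-06 by edgeR). Its partners were not called. The flavin subunit gene Sdha had 140, 138 and 143 CPM in M-LPS-EV libraries and 142, 143 and 138 CPM in M-EV libraries, and the membrane anchor genes Sdhc and Sdhd gave log2 fold changes of -0.03 (SE 0.04) and 0.06 (SE 0.04). Per length Sdhb had the highest level of the 4, with 146 ± 6.03 TPM in M-LPS-EV libraries and 173 ± 0.850 TPM in M-EV libraries (SD, n = 3 each).

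In complex III, which passes electrons from coenzyme Q to cytochrome c, 1 of 8 nuclear members fell, or 12.5% beside the 15.2% of all tested genes called lower. Uqcrc2, a core subunit, had 92.1, 88.4 and 96.5 CPM in M-LPS-EV libraries and 102, 107 and 97.1 CPM in M-EV libraries (log2 fold change -0.14, SE 0.04, adjusted p = 0.0056 by edgeR). The groups came close without overlapping, and without M-EV replicate 2 the adjusted p was 0.055. The Rieske iron-sulfur subunit Uqcrfs1 gave 0.02 (SE 0.04) and the core subunit Uqcrc1 0.03 (SE 0.03), both not called. Uqcrq, the member with the highest TPM of complex III, had 115, 131 and 124 CPM in M-LPS-EV libraries and 133, 129 and 133 CPM in M-EV libraries, with overlap and an edgeR adjusted p of 0.060. Values of a pair of genes outside the name rule stand beside these. The gene Cycs, for the electron carrier cytochrome c, fell by 0.14 on the log2 scale (SE 0.03, adjusted p = 0.0023 by edgeR), and Cyc1, for the cytochrome c1 subunit of complex III, gave 0.00 (SE 0.04) and was not called.

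Complex IV, cytochrome c oxidase, held the highest log2 fold changes among called members, those of Ndufa4l2, as counted here, and of Cox6b2. Both genes have a paralogous counterpart, and Cox6b2 was rare. Of the 16 tested nuclear members of complex IV 4 rose and 2 fell. That share of 37.5% lies between the 31.6% of all tested genes and the 49.6% of those with at least 50 CPM. Ndufa4l2 (chr10:127514967-127517154), a paralogue of the subunit Ndufa4 known to be induced by HIF-1 under low oxygen, had 74.5, 70.5 and 70.3 CPM in M-LPS-EV libraries and 26.0, 28.1 and 24.3 CPM in M-EV libraries. The lowest M-LPS-EV library stood far above the highest M-EV library. Ndufa4l2 rose 2.75-fold (log2 fold change 1.46, SE 0.05, adjusted p = 1.8e-18 by edgeR). Its counterpart Ndufa4 had 78.2, 73.2 and 72.6 CPM in M-LPS-EV libraries and 79.7, 79.95 and 82.5 CPM in M-EV libraries. Ndufa4 was called lower by a log2 fold change of -0.11 (SE 0.04, adjusted p = 0.023 by edgeR), a call lost without M-EV replicate 3, M-LPS-EV replicate 2 or M-LPS-EV replicate 3, at adjusted p from 0.098 to 0.11. As a ratio of TPM, Ndufa4l2 stood at 55.8%, 55.0% and 58.3% of Ndufa4 in M-LPS-EV libraries and at 19.6%, 20.2% and 17.4% in M-EV libraries. Ndufa4l2 shares 32 bases with Shmt2 on the opposite strand, which had 43673 counts in M-LPS-EV cells and 40846 in M-EV cells and rose by 0.20 on the log2 scale (adjusted p = 5.2e-09 by edgeR).

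Cox4i2, the isoform of subunit IV known from lung and from low oxygen, had 17.7, 16.9 and 16.9 CPM in M-LPS-EV libraries and 15.0, 14.2 and 13.0 CPM in M-EV libraries. The groups did not overlap, and Cox4i2 rose by 0.29 on the log2 scale (SE 0.07, adjusted p = 0.0025 by edgeR). The common isoform Cox4i1 had 160, 171 and 168 CPM in M-LPS-EV libraries and 161, 167 and 166 CPM in M-EV libraries, with full overlap (log2 fold change 0.01, SE 0.03). The TPM of Cox4i2 was 11.1%, 9.96% and 10.0% of that of Cox4i1 in M-LPS-EV libraries, against 9.40%, 8.57% and 7.91% in M-EV libraries. Cox4i1 is the highest nuclear member of complex IV per length, at 547 ± 15.8 TPM in M-LPS-EV and 544 ± 9.59 TPM in M-EV libraries (SD, n = 3 each), and a same-strand gene model that overlaps it, Gm20388, carried 27.1% as many counts.

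Cox6b2, known as a testis isoform, was rare. Its level was 0.939, 0.972 and 1.08 CPM in M-LPS-EV libraries and 0.432, 0.635 and 0.443 CPM in M-EV libraries. Its counts were 20, 23 and 22 in M-LPS-EV libraries and 11, 14 and 10 in M-EV libraries. At these counts Cox6b2 passed the filter on low counts only through the M-LPS-EV libraries, so its test depends on the group where it is higher. It was called higher (log2 fold change 0.98, SE 0.32, adjusted p = 0.021 by edgeR), but the call was lost without M-EV replicate 1, M-EV replicate 3, M-LPS-EV replicate 2 or M-LPS-EV replicate 3, at adjusted p from 0.051 to 0.089. The common isoform Cox6b1 gave -0.01 (SE 0.04), and the TPM of Cox6b2 was 1.71% ± 0.240 of that of Cox6b1 in M-LPS-EV libraries and 0.797% ± 0.165 in M-EV libraries (SD, n = 3 each). The muscle isoform Cox6a2 had 7.13, 7.99 and 7.74 CPM in M-LPS-EV libraries and 8.04, 8.03 and 8.33 CPM in M-EV libraries, without overlap but not called (adjusted p = 0.53 by edgeR). The common isoform Cox6a1 had 110, 111 and 111 CPM in M-LPS-EV libraries and 124, 116 and 115 CPM in M-EV libraries, and it was called lower by a log2 fold change of -0.10 (SE 0.03, adjusted p = 0.024 by edgeR). Without M-EV replicate 1, M-LPS-EV replicate 1 or M-LPS-EV replicate 2 that call was lost, at adjusted p from 0.051 to 0.19. The TPM ratio of Cox6a2 to Cox6a1 was 5.34% ± 0.308 in M-LPS-EV libraries and 5.33% ± 0.2803 in M-EV libraries (SD, n = 3 each), and of 6 tested skeletal muscle markers none was called.

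Cox7a2l is known from supercomplexes of complexes III and IV, and its role in these cells was not tested. It had 142, 144 and 138 CPM in M-LPS-EV libraries and 133, 131 and 135 CPM in M-EV libraries. Its groups did not overlap (log2 fold change 0.09, SE 0.03, adjusted p = 0.025 by edgeR), and the call was lost without M-EV replicate 1, M-EV replicate 2, M-LPS-EV replicate 1 or M-LPS-EV replicate 2, at adjusted p from 0.055 to 0.12. Its relative Cox7a2 gave 0.02 (SE 0.04) and Cox8a 0.07 (SE 0.03), both not called.

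**Figure D5:**
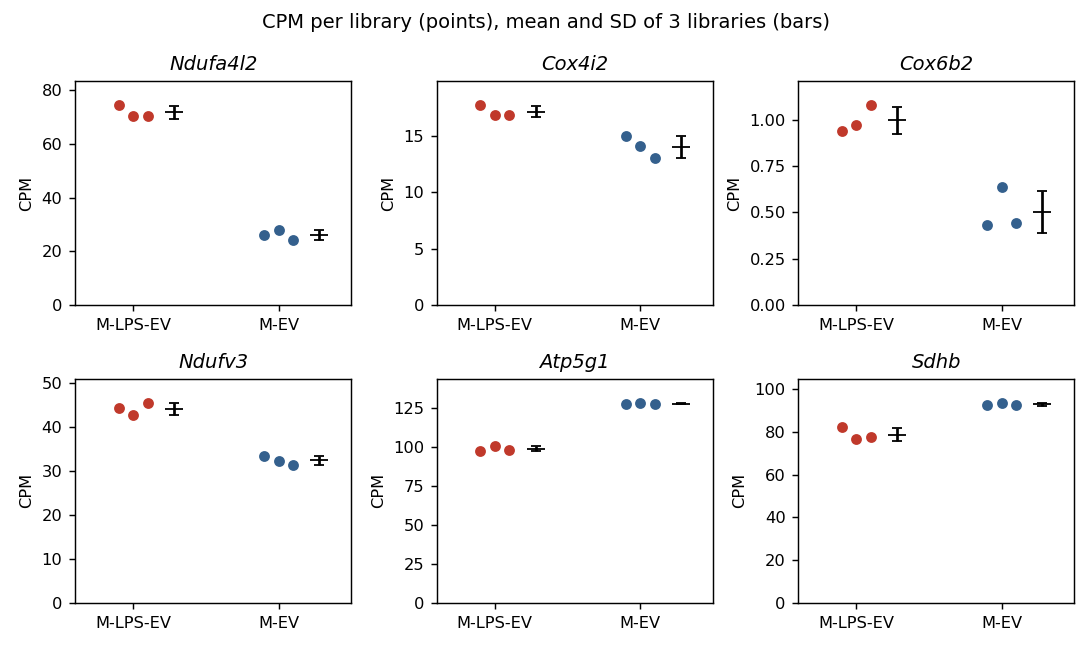
CPM (vertical axis, from 0) of 6 members in each library, with the mean and SD of 3 libraries beside the points and M-LPS-EV left of M-EV. Ndufa4l2, Cox4i2, Cox6b2 and Ndufv3 are higher in all M-LPS-EV libraries, and Atp5g1 and Sdhb are lower in all of them.

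In complex V, the ATP synthase, 3 of 17 tested nuclear members fell and none rose, a share of 17.6% called against 31.6% of all tested genes. Subunit c, which forms the rotating ring in the membrane, is encoded by Atp5g1, Atp5g2 and Atp5g3, whose mature proteins are identical. Atp5g1 (chr11:96068852-96075670), whose promoter is printed above, had 97.8, 101 and 98.1 CPM in M-LPS-EV libraries and 128, 129 and 128 CPM in M-EV libraries. The groups were tight and far apart, and Atp5g1 fell by 0.37 on the log2 scale (SE 0.03, adjusted p = 3.5e-10 by edgeR). The other two c genes were not called. Atp5g2 had 134, 136 and 135 CPM in M-LPS-EV libraries and 132, 129 and 138 CPM in M-EV libraries, and Atp5g3 had 105, 111 and 109 CPM in M-LPS-EV libraries and 109, 109 and 109 CPM in M-EV libraries. Per length, Atp5g1 averaged 379 ± 6.01 TPM in M-LPS-EV libraries and 492 ± 3.77 TPM in M-EV libraries, and Atp5g2 443 ± 0.442 and 442 ± 15.0 TPM (SD, n = 3 each). On average Atp5g1 was thus below Atp5g2 in M-LPS-EV libraries and above it in M-EV libraries. Pseudogene copies carried 1.31% as many counts as Atp5g1 and 9.95% as many as Atp5g2.

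Of the 5 tested genes of the catalytic F1 head 2 fell, beside 15.2% called lower among all tested genes and 28.2% among those with at least 50 CPM. Atp5b, the catalytic beta subunit, had 692, 698 and 699 CPM in M-LPS-EV libraries and 744, 751 and 736 CPM in M-EV libraries. All M-LPS-EV libraries were lower (log2 fold change -0.10, SE 0.02, adjusted p = 0.00020 by edgeR). The call of Atp5b was lost with offsets for effective length (adjusted p = 0.089 by edgeR) and with limma on log2(TPM + 1) (adjusted p = 0.075). Atp5a1, the alpha subunit, gave -0.05 (SE 0.02, adjusted p = 0.033 by edgeR) without overlap, and leaving out any 1 of 5 of the 6 libraries, all but M-LPS-EV replicate 2, took its adjusted p to between 0.057 and 0.10. The gamma subunit gene Atp5c1, which forms the rotor shaft, gave -0.08 (SE 0.03, adjusted p = 0.051 by edgeR) and lay just outside the threshold.

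Transcript shares could be compared in 37 members with at least 2 transcripts of 10% or more. Of their 91 transcripts 9, in 7 members, had shares that did not overlap between the groups. That is 9.89%, beside 10.0% of 31925 such transcripts over all tested genes. Shares within a gene add up to a whole, so these transcripts are not independent. Atp5h, which codes for a stalk subunit of complex V, holds both a transcript with a higher share and a transcript with a lower share. Its shorter transcript Atp5h-208 made up 21.3%, 21.9% and 25.5% of the gene in M-LPS-EV libraries and 16.0%, 13.5% and 15.2% in M-EV libraries. The main transcript Atp5h-201 stood at 72.6%, 73.6% and 68.5% in M-LPS-EV libraries and at 78.6%, 79.5% and 77.8% in M-EV libraries. In Ndufs4, a complex I subunit gene, the retained-intron transcript Ndufs4-203 made up 18.7%, 21.8% and 24.0% in M-LPS-EV libraries and 12.7%, 15.0% and 17.9% in M-EV libraries. These shares rest on RSEM's sharing of reads between transcripts and were not tested.

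Genes that build and supply the complexes were counted from lists of known roles. Beside them stand the 16.4% of all tested genes called higher and the 15.2% called lower. Among tested genes with at least 50 CPM these shares were 21.4% and 28.2%. Of 18 tested complex I assembly genes 2 fell, Timmdc1 and Ndufaf4, and of 6 for complex III 2 fell, Uqcc1 and Ttc19. Of 23 for complex IV 1 rose and 2 fell, and of 4 for complex II and 5 for complex V none was called. The gene that rose was Higd1a, a hypoxia-induced protein that binds complex IV, with 256, 271 and 257 CPM in M-LPS-EV libraries and 174, 178 and 174 CPM in M-EV libraries. Higd1a rose by 0.58 on the log2 scale (SE 0.03, adjusted p = 2.6e-15 by edgeR). Cox18, an insertase for subunit 2 of complex IV, fell by 0.27 on the log2 scale (SE 0.07, adjusted p = 0.0052 by edgeR). The other complex IV assembly gene that fell was Cox16. All 6 lower calls among assembly genes were lost without some library, at adjusted p from 0.051 to 0.18, and leaving out any 1 of the 6 libraries lost at least 1 of them.

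Of 17 genes of mitochondrial DNA replication and transcription 1 rose, Mterf4 (log2 fold change 0.26, SE 0.05, adjusted p = 0.00028 by edgeR), and 1 fell, Mterf3. The mitochondrial RNA polymerase gene Polrmt gave 0.02 (SE 0.06) and the packaging and initiation factor gene Tfam 0.05 (SE 0.05), both not called. Of 14 genes of mitochondrial RNA processing and stability 3 fell, namely Trmt10c, Pnpt1 and Lrpprc, which stabilises mitochondrial mRNAs. Lrpprc fell by 0.12 on the log2 scale (SE 0.04, adjusted p = 0.016 by edgeR). The calls of Lrpprc and Mterf3 were each lost without any of 3 libraries, at adjusted p of up to 0.11 and 0.085. For Lrpprc these were M-EV replicate 1, M-EV replicate 2 and M-LPS-EV replicate 3, and for Mterf3 M-EV replicate 1, M-LPS-EV replicate 1 and M-LPS-EV replicate 3. Without M-LPS-EV replicate 2 the adjusted p of Trmt10c was 0.067 and that of Pnpt1 0.079, and without M-EV replicate 1 that of Pnpt1 was 0.057.

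Of 13 tested regulators of respiratory genes 4 rose and none fell. Epas1, which codes for the oxygen-sensed factor HIF-2 alpha, had 36.7, 32.8 and 34.4 CPM in M-LPS-EV libraries and 13.3, 13.7 and 13.5 CPM in M-EV libraries. It rose by 1.36 on the log2 scale (SE 0.06, adjusted p = 1.0e-15 by edgeR) without overlap. Hif1a, its relative, had 801, 803 and 845 CPM in M-LPS-EV libraries and 708, 693 and 691 CPM in M-EV libraries and rose by 0.23 on the log2 scale (SE 0.02, adjusted p = 3.3e-09 by edgeR). The factor gene Yy1 rose by 0.20 on the log2 scale and Lonp1, a protease of the mitochondrial matrix, by 0.13. The call of Yy1 was lost with offsets for effective length (adjusted p = 0.15 by edgeR) and with limma on log2(TPM + 1) (adjusted p = 0.28). The coactivator gene Ppargc1a, a driver of mitochondrial biogenesis, was rare, with 38 counts in M-LPS-EV cells and 53 in M-EV cells, and gave -0.37 (SE 0.35). Not called either were Nrf1 (0.08, SE 0.05), Gabpa (0.06, SE 0.04), Esrra (-0.01, SE 0.08) and Pprc1 (-0.02, SE 0.04), as log2 fold changes.

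Among genes that feed the chain, 4 of 14 citric acid cycle genes fell and none rose. The 4 were Idh3a (log2 fold change -0.17, SE 0.04), Mdh2, Idh2 and Dld, each with means over 50 CPM. Among all tested genes with a mean of at least 50 CPM, 28.2% were called lower. Without M-EV replicate 1 or M-LPS-EV replicate 2 the adjusted p of Dld was 0.0605 and 0.0606, and with offsets for effective length that of Idh2 was 0.052 by edgeR. Of 12 genes of pyruvate entry 2 rose and 3 fell. Pdk1, a kinase that inactivates pyruvate dehydrogenase, had 190, 185 and 184 CPM in M-LPS-EV libraries and 122, 125 and 120 CPM in M-EV libraries. The groups lay far apart, and Pdk1 rose by 0.61 on the log2 scale (SE 0.03, adjusted p = 2.8e-15 by edgeR). Its relative Pdk3 rose by 0.23 (SE 0.04), and the pyruvate carrier gene Mpc2 fell by 0.25 (SE 0.05), both on the log2 scale. Pdhb and Pdp2, subunits of pyruvate dehydrogenase and of its phosphatase, were the others called lower. The call of Pdhb was lost without M-EV replicate 1, M-EV replicate 2 or M-LPS-EV replicate 2, at adjusted p from 0.052 to 0.099, and that of Pdp2 without any library but M-EV replicate 1, at 0.079 to 0.19.

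Of 7 tested genes of adenine nucleotide and phosphate carriers, porins and uncoupling proteins 1 rose and 4 fell. Slc25a4, an exchanger of ADP and ATP, had 407, 401 and 411 CPM in M-LPS-EV libraries and 466, 461 and 464 CPM in M-EV libraries. It fell by 0.19 on the log2 scale (SE 0.02, adjusted p = 3.2e-08 by edgeR). The porin gene Vdac1 rose by 0.16 (SE 0.02) while Vdac3 fell by 0.16 (SE 0.03), both on the log2 scale. The other lower calls were Vdac2, at adjusted p of 0.11 to 0.12 without M-EV replicate 1 or M-LPS-EV replicate 2, and the uncoupling protein gene Ucp2, at 0.074 to 0.16 without any library but M-EV replicate 2. Of 13 coenzyme Q genes 1 fell, Coq9, a call lost without any library but M-EV replicate 1, at adjusted p from 0.052 to 0.22. Of 12 genes of cristae and cardiolipin Crls1 fell and Immt and Chchd6 rose. The call of Immt was lost without M-EV replicate 1, M-EV replicate 2 or M-LPS-EV replicate 2, at 0.099 to 0.24, and that of Chchd6 without M-EV replicate 3 or M-LPS-EV replicate 2, at 0.060 to 0.12. Inducible enzymes whose products are known to act on the chain also differed. Nos2, which makes nitric oxide, an inhibitor of complex IV, rose with 840 counts in M-LPS-EV cells and 3 in M-EV cells. Acod1, which makes itaconate, an inhibitor of complex II, had 48 counts in M-LPS-EV cells and 0 in M-EV cells. With so few M-EV counts, either gene could pass the filter on low counts only through the M-LPS-EV libraries. Their part in the results above was not tested.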

How the data were processed

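RNA was sequenced as 6 libraries made with a stranded mRNA kit, 3 for M-LPS-EV and 3 for M-EV, grouped by the sample titles. The submitters' processing notes name STAR, RSEM, DESeq2 and the mm10 build; their versions, the annotation and the strand setting of RSEM are not stated in what was used here. The authors deposited 1 table of transcripts per library with an expected count per transcript, estimated by RSEM and not normalized. The authors deposited beside it TPM, scaled by effective transcript length, and the IsoPct column, the percent of a gene's abundance that each transcript takes, per the file headers. No other columns of samples were present (0). Of the 142699 transcripts 99.07% were in GENCODE M21 (GRCm38, mm10), which gave symbols, coordinates (1-based) and gene types.

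Expected counts were summed per gene identifier and rounded. Genes were filtered with filterByExpr (minimum count 10, minimum total 15) and tested with edgeR 4.0.16 (R 4.3.3; TMM, glmQLFit, glmQLFTest, group as the only term, two-sided, Benjamini-Hochberg over all 14604 genes, threshold 0.05). CPM were computed with TMM factors, and each SD is that of 3 libraries. RSEM's uncertainty in sharing reads between near-identical genes and transcripts is not modelled, so p-values of such genes may be too small. Nuclear copies of mitochondrial genes were matched with BLAST 2.17.0 (identity of at least 95%, coverage of at least 80%); pseudogene copies of nuclear members at 90% and 50%. Sums, ratios and transcript shares were not tested and stand as descriptions. Steps were tried on simulated data. Figures used matplotlib 3.10.9.

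The members and lists were chosen with earlier results of these data known. Named were all mitochondrial members, up to 4 called nuclear members with the smallest p per complex and direction, the highest TPM per complex, the tissue- or oxygen-dependent isoform genes with their counterparts, up to 4 called genes per list and a fixed set of regulators. Sdhc, Sdhd, the core subunits of complex I, Ndufb4, Uqcrc1, Uqcrfs1, Uqcrq, Atp5c1, Atp5g2, Atp5g3 and Atp5h stand beside them as partners or as values near the threshold, chosen after their values were seen. Alternatives were RLE and upper-quartile scaling, library sizes without mitochondrial genes, no count filter, a minimum mean count of 50, offsets for effective length, a replicate block, glmTreat against 1.2-fold, DESeq2 1.42.0, limma 3.58.1 on log2(TPM + 1), nuclear copies added and each library left out. Pseudogene copies added to nuclear members was chosen after seeing the data.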

Additional observations from a re-analysis of the deposited data

How the results depend on the processing

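Of 53 named genes with a call, all those followed through the alternatives, none changed direction under any of up to 18 alternatives. Ndufa4l2, Ndufv3 and Atp5g1 kept their calls in all 18, and Sdhb, Cox4i2, mt-Co1 and mt-Nd2 lost theirs only under glmTreat against a change of 1.2-fold. That test called 2 members higher and 1 lower, beside 760 genes higher and 377 lower over the table (7.79%). Upper-quartile scaling gave 17 lower members, with 23.7% of members and 32.1% of all genes called in either direction. No count filter also gave 17 lower members. There 23.2% of members were called against 18.2% of all genes. That setting tested 25745 genes in place of 14604, while 4683 genes were called in place of 4614. The lower share of all genes thus goes with more genes tested and not with fewer calls. In that setting 10 of the 13 mitochondrial genes were called, with mt-Co2, mt-Co3 and mt-Atp6 among those added, whose reads are split with nuclear copies. Effective length offsets gave 6 lower members, with 1539 genes higher and 1329 lower in all. DESeq2 called 4 members higher, and limma on log2(TPM + 1) called 4 higher, with 1280 genes higher and 1342 lower in all. Calls lost with length offsets were those of Atp5b, Cox6a1, Cox7a2l, Ndufa4, Ndufa6 and mt-Nd4, with DESeq2 those of Cox6b2, Cox7a2l, Ndufa4, Ndufa6 and mt-Nd4, and with limma those of Atp5b, Cox7a2l, Ndufa6, mt-Cytb and mt-Nd4. The cause of these shifts in the members' calls was not tested. As a share of TPM the log2 ratio of the mitochondrial sum was -0.064, in place of -0.029, and that of the nuclear sum -0.032, in place of -0.001.

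Leaving out each library in turn gave 2100 to 2245 genes higher and 1878 to 2072 lower, against 2397 and 2217 with all. Members called ran from 4 to 6 higher and from 7 to 11 lower. The log2 ratio of sums ran from -0.047 to -0.010 for mitochondrial and from -0.007 to 0.006 for nuclear members. Log2 ratios of isoform pairs ran from 1.504 to 1.61 for Ndufa4l2 to Ndufa4, 0.206 to 0.33 for Cox4i2 to Cox4i1, -0.037 to 0.046 for Cox6a2 to Cox6a1, 0.976 to 1.275 for Cox6b2 to Cox6b1 and -0.357 to 1.025 for Cox7a1 to Cox7a2, where the last rests on 6 counts a group.

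Deviations of libraries with the same replicate number correlated at 0.028, -0.044 and -0.019, and not every library correlated best with its own number. Correlations this small cannot decide whether the numbers pair the samples, which the sources do not state. With the replicate number as a block, 2346 genes were called higher and 2173 lower, and 7 members higher and 11 lower, mt-Atp6 being the one added. The depth and 3 libraries a group limit what a single member can show, since Ndufs3 at -0.093 (SE 0.039) and Uqcrq at -0.091 (SE 0.036) did not pass the test, and rare isoforms such as Cox6b2 rest on few counts.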
